A study of Mus musculus with 9 samples.

Results

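The expression of 10 genes of the S100a family was examined in mammary tumours of BlgCre-NeuKI mice. The members were the rows whose gene symbol is S100a1, S100a3, S100a6, S100a7a, S100a8, S100a9, S100a10, S100a11, S100a14 or S100a16, which are 10 of the 18484 genes listed for every tumour. All the mice carried the NeuKI allele, an activated Erbb2 orthologue placed in the endogenous Erbb2 locus behind a floxed stop cassette, together with a Cre transgene under the beta-lactoglobulin promoter, which is active in luminal mammary cells. Bulk RNA-seq was available for 9 tumours, each 1 library, and no normal mammary gland was analysed here. The 5 tumours labelled as high-amplified at the Erbb2/Neu locus were adenocarcinomas of no special type, AC(NST). This label rests on genomic qPCR. For MS1213.1 and MS1218.2 it was discordant with digital PCR of Neu, and exome copy number went with the qPCR in MS1213.1 and with the digital PCR in MS1218.2, so that the status of MS1218.2 in particular is uncertain. Virgin mice gave MS1163.2, MS1163.1 and MS1213.1, and parous mice gave MS1155.3 and MS1218.2. Among epithelial tumours, the 3 not/low-amplified ones were all parous, and consisted of the adenosquamous carcinomas (ASQC) MS1210.1 and MS1349.1 and the AC(NST) MS1166.1. The last tumour, MS1156.1, was a sarcoma from a parous mouse. No ages of the mice were given in the labels. MS1163.1 and MS1163.2 share a number that the study uses for 1 animal, although the series description assigns each tumour to its own mouse, so that the virgin tumours may come from only 2 mice and p-values may understate the spread between mice. Since every ASQC was not/low-amplified and every virgin tumour was high-amplified, effects of amplification, histotype and parity cannot be told apart in most comparisons.

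S100 proteins are small calcium-binding proteins of the EF-hand type that work mainly as dimers, binding partner proteins when calcium rises. Most of their genes lie in a cluster beside the epidermal differentiation complex, a stretch of genes for the cornified envelope of keratinising cells. S100a8 and S100a9 together form calprotectin, an abundant protein of neutrophils that is also induced in keratinocytes of inflamed or thickened epidermis. S100a7a is a keratinocyte protein related to human psoriasin, S100a3 is a hair cuticle protein, S100a10 and S100a11 bind annexins, and S100a6 (calcyclin), S100a14 and S100a16 are found in many epithelia. S100a1 is best known from heart and skeletal muscle.

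In the GRCm38 annotation all 10 members lie on chromosome 3. S100a1 (chr3:90511034-90514392, minus strand) and S100a9 (chr3:90692632-90695721, minus strand) flank a first group that also holds S100a14, S100a16, S100a3, S100a6, S100a7a and S100a8. S100a11 (chr3:93520488-93526287) and S100a10 (chr3:93555080-93564643), both on the plus strand, start 3009 and 3044 kb from the start of S100a1. Exons of S100a3 share 4.61% of their bases with 2 other annotated genes, so that its low values are less certain, whereas the other 9 members have no exonic overlap. A RefSeq promoter sequence (GRCm38.p6, the 250 bases before a transcript start) was found for 8 members. Those of S100a8 (chr3:90668821-90669070, plus strand), S100a9 (chr3:90695722-90695971, minus strand) and S100a7a (chr3:90654052-90654301, plus strand) are shown because these genes had large differences between the ASQC and AC(NST) tumours. That of S100a11 (chr3:93520246-93520495, plus strand) is shown because S100a11 varied little between the histotypes. The sequences run 5′ to 3′ on the strand of the gene, with motif matches in capitals.
S100a8: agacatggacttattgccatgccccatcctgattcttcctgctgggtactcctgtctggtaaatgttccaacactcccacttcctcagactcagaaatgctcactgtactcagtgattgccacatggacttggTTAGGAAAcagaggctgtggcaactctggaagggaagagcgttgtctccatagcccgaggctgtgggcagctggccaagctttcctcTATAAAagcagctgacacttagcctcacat
S100a9: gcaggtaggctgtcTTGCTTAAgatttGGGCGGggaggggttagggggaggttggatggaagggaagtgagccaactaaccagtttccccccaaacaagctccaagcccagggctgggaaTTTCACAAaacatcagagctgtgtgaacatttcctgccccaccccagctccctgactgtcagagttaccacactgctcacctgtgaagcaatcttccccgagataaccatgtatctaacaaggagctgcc
S100a7a: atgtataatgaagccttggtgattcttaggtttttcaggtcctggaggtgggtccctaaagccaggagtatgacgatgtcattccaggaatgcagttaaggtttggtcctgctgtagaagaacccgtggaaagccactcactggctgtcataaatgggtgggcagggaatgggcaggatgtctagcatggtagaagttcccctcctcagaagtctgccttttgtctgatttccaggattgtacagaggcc
S100a11: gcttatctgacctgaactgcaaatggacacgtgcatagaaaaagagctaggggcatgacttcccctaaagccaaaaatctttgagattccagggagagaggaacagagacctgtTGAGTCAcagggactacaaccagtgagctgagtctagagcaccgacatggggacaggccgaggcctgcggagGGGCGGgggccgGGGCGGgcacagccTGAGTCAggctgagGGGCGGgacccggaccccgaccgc
The motifs searched on both strands were a TATA box (TATAAA, in 12.4% of 32851 RefSeq promoters), AP-1 (TGANTCA, 6.75%), C/EBP (TTNNGNAA, 36.8%) and Sp1/KLF (GGGCGG, 32.7%), and no matches overlap in the sequences printed. The S100a8 promoter holds a TATA box beginning 30 bases before the start and 1 C/EBP match. That of S100a9 holds 2 C/EBP matches and 1 Sp1/KLF match and no TATA box, and that of S100a11 holds 2 AP-1 and 3 Sp1/KLF matches. None of these letters occurred in the S100a7a window. These matches describe the sequence and are not evidence of binding.

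Values are given as scaled counts, the reads counted on a gene divided by 1 size factor for each tumour. Each tumour had 12501225 to 23912429 reads on genes, and the ASQC tumours were the deepest, with 23703980 and 23912429 reads. The summed scaled counts of 14 luminal epithelial markers were 59990 to 80140 in the high-amplified and 129806 to 188515 in the not/low-amplified tumours, without overlap, and 632 in the sarcoma, whereas 10 fibroblast markers summed to 654550 in the sarcoma. MS1218.2 had the highest macrophage (95937) and fibroblast (520063) marker sums of the epithelial tumours. In the paper's ESTIMATE analysis of the RNA-seq, it was the only sample excepted from a high purity of tumour cells. MS1163.2 had the highest skeletal muscle sum of the epithelial tumours, at 4261. The squamous marker list summed to 2584 in MS1166.1, 30612 in MS1349.1, 54551 in MS1210.1 and 531 to 1823 in the high-amplified tumours. In 22 of its 23 rows both ASQC tumours lay above every AC(NST), against 5.3% of all genes with 10 counts in 3 or more epithelial tumours. Only 9 of the 23 rows passed that filter, and 4 rows stayed below a scaled count of 10 in every tumour. The part of cell type make-up in the S100a values was not tested, and in bulk tumours fewer cells of a type and less RNA per cell cannot be told apart.

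Between genes, levels were compared as scaled counts per kb of exon, the median over the 8 epithelial tumours being given here. S100a1 (1556 per kb), S100a6 (1462 per kb), S100a11 (1455 per kb), S100a10 (1299 per kb) and S100a16 (1126 per kb) formed an upper group whose ranges over the tumours overlapped, so that their order was not settled. S100a8 followed at 506 per kb, S100a9 at 74.8 per kb and S100a14 at 60.8 per kb, with overlapping ranges. S100a7a (2.88 per kb) and S100a3 (1.47 per kb) had the lowest medians. The annotated exons of S100a3 span 5.66 kb, against 0.511 to 1.73 kb for the other members. By scaled count its median (8.31) lay above that of S100a7a (3.96), so that their order depends on the length used. S100a7a reached 1805 per kb in its highest tumour, while S100a3 did not exceed 16.1 per kb in any epithelial tumour.

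**Figure D1:**
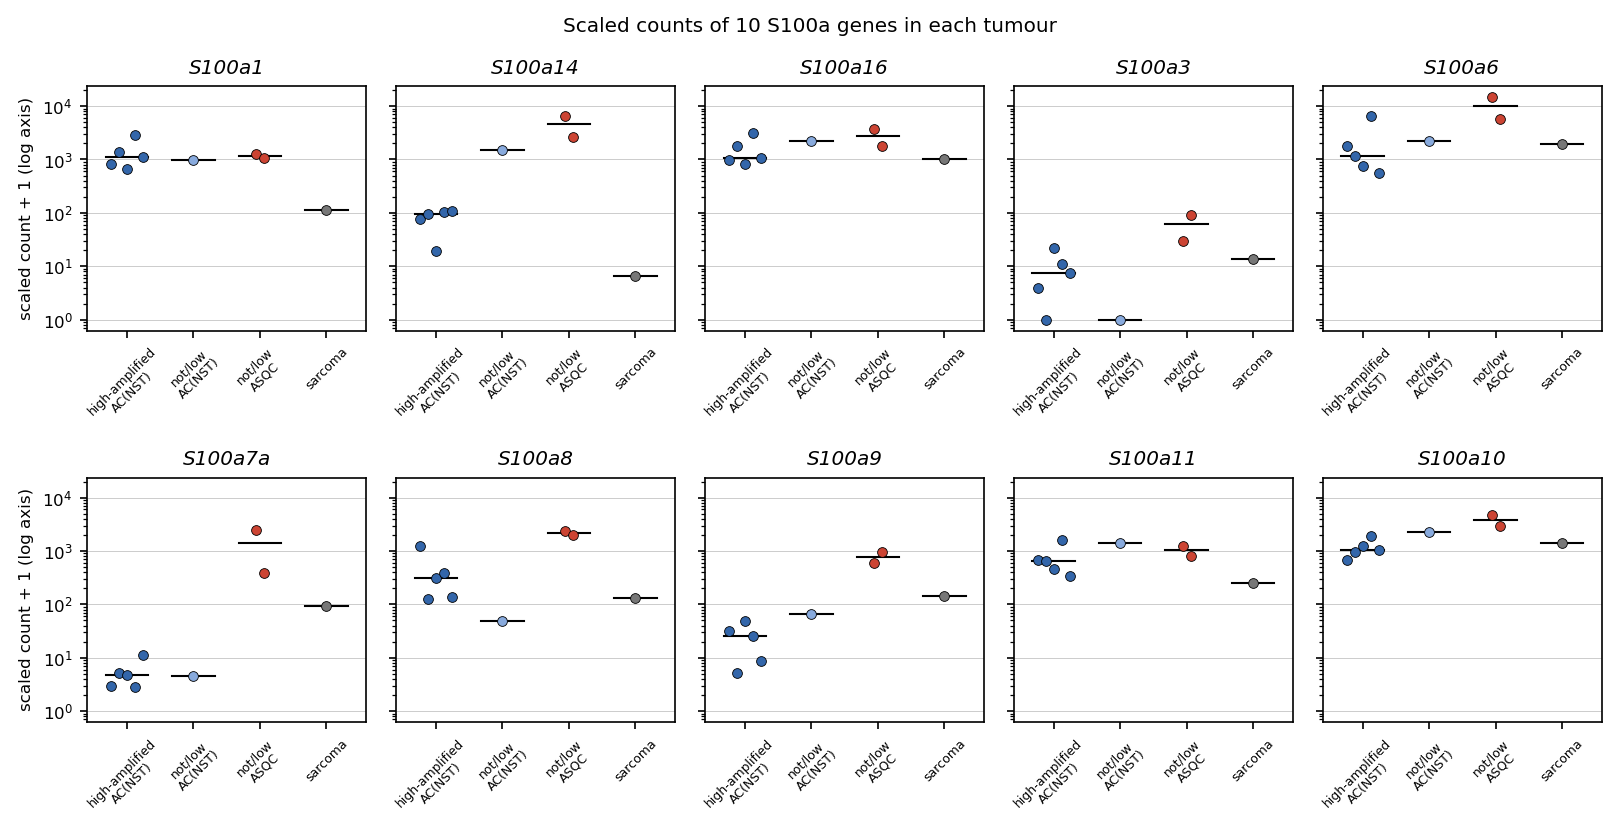
Scaled count plus 1 (log axis) of each S100a gene in each tumour, in chromosome order, with 1 point per tumour and a bar at the group median. In S100a7a the ASQC tumours (382 and 2485) stand far above the AC(NST) tumours (1.85 to 10.3), in S100a14 all 3 not/low-amplified tumours lie above the high-amplified tumours, and in S100a1 the epithelial groups overlap.

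Expression was compared with edgeR's quasi-likelihood test over 14007 genes, those that reached 10 counts in 3 or more epithelial tumours. A gene was called where its adjusted p-value was under 0.05 and its log2 fold change beyond 1. S100a7a, with 10 counts in 2 epithelial tumours only, did not pass this filter, which left 9 members. By histotype (2 ASQC against 6 AC(NST)), 1 of the 9 members was called, S100a9, against 0.236% of all genes tested. An unadjusted p-value under 0.05 was reached by 6 of the 9, all higher in ASQC, against 4.38% of all genes in that direction. The median log2 fold change was 2.25 over the 9 members and -0.08 over all genes. By amplification (5 high-amplified against 3 not/low-amplified), 1 of the 9 was called, S100a14, against 0.921% of all genes, and 3 reached an unadjusted p-value under 0.05, each lower in the high-amplified tumours, against 22.8% of all genes in either direction. The median log2 fold change of the 9 was -1.69, and that of all genes 0.02. Both ASQC tumours lay above every AC(NST) in 6 of the 10 members (S100a3, S100a7a, S100a8, S100a9, S100a10 and S100a14), 5 of which passed the filter, and in 5.3% of all genes past the filter. All 3 not/low-amplified tumours lay above every high-amplified tumour in 3 members (S100a9, S100a10 and S100a14), and in 8.04% of all genes past the filter. Without MS1218.2, 4 members (S100a6, S100a9, S100a10 and S100a14) and 1255 of all genes were called by amplification. The same tumours enter both comparisons, so that these counts are not independent of each other.

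**Figure D2:**
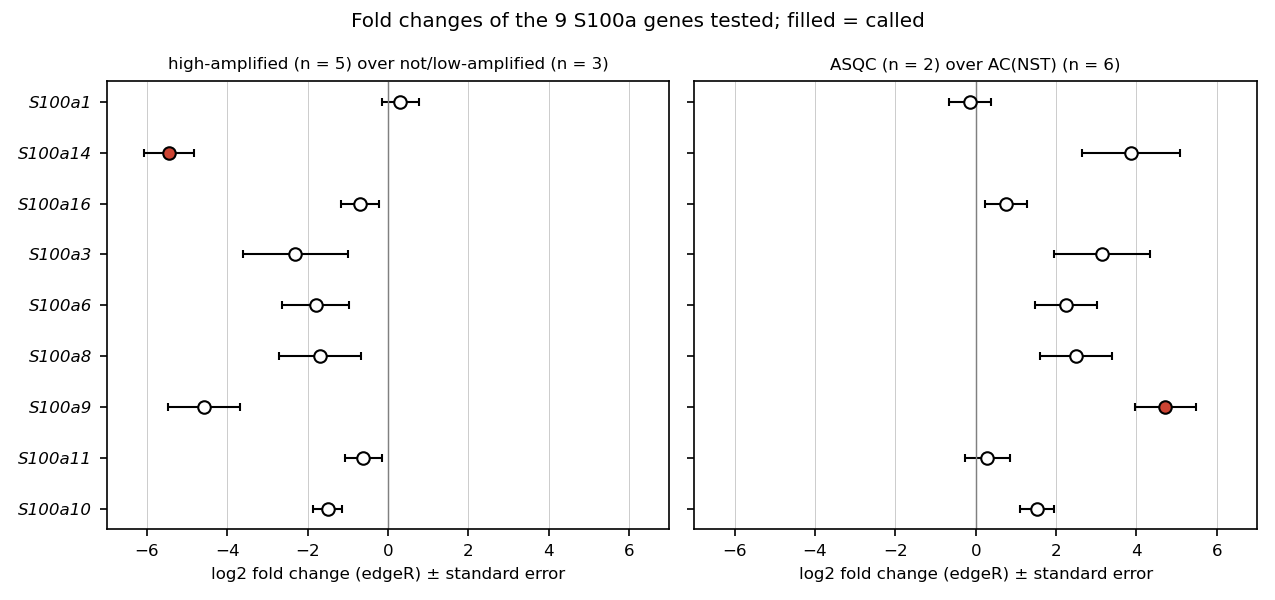
Log2 fold change (edgeR) with its standard error for the 9 S100a genes tested, for high- over not/low-amplified tumours (first panel) and for ASQC over AC(NST) tumours (second panel), with called genes filled. S100a14 was called by amplification (-5.45) and S100a9 by histotype (4.72), while S100a1, S100a11 and S100a16 lay closest to 0 in both panels.

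S100a7a had the largest contrast between histotypes. Its scaled count was 382 in MS1349.1 and 2485 in MS1210.1. The AC(NST) tumours had 3.57 in MS1166.1, 10.3 in MS1155.3, 1.85 in MS1218.2, 3.73 in MS1163.2, 4.20 in MS1163.1 and 1.93 in MS1213.1. The lower ASQC thus lay 37.1-fold above the highest AC(NST). The not/low-amplified AC(NST) MS1166.1 had as low a value as the high-amplified tumours. In edgeR without the filter on low counts, the log2 fold change of ASQC over AC(NST) was 8.38 ± 0.70 (SE, edgeR adjusted p = 0.000205), where 0.931% of 18358 genes were called. The sarcoma had 92.1, between the AC(NST) and the ASQC tumours.

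S100a14, a gene of simple and stratified epithelia, was instead high in all 3 not/low-amplified tumours. Its scaled counts were 1508 in MS1166.1, 2662 in MS1349.1 and 6416 in MS1210.1. Those of the high-amplified tumours were 108 in MS1155.3, 102 in MS1218.2, 18.6 in MS1163.2, 93.4 in MS1163.1 and 75.1 in MS1213.1. The groups did not overlap, and the lowest not/low-amplified tumour was 13.9-fold above the highest high-amplified tumour. The mean was 79.4 ± 36.2 (SD, n = 5) for high-amplified and 3529 ± 2566 (SD, n = 3) for not/low-amplified tumours. The log2 fold change was -5.45 ± 0.62 (SE, edgeR adjusted p = 0.0175). The adjusted p ranged from 1.68e-16 (DESeq2) to 0.222 over the alternatives, and the call was lost without MS1210.1 (log2 fold change -4.70, adjusted p 0.0632), with parity as a covariate (-5.05, 0.156), where 0 of all genes were called, and with the sarcoma included (-5.04, 0.222). It was kept without MS1218.2 (0.0130) and with MS1163.1 and MS1163.2 summed into 1 sample (0.0430). Luminal epithelial markers had the same direction, all 14 having a negative log2 fold change for high- over not/low-amplified tumours (median -0.93), 7 of them at an unadjusted p-value under 0.05 and 0 called, and their part in the S100a14, S100a10 and S100a9 differences was not tested. Among the AC(NST) tumours alone, MS1166.1 stood 19.0-fold above the high-amplified mean, a log2 fold change of -4.26 for high- over not/low-amplified in edgeR. With 1 not/low-amplified tumour in that fit, its adjusted p (0.0523) takes the spread from the high-amplified tumours alone. By histotype the log2 fold change was 3.87 ± 1.22 (SE, edgeR adjusted p = 0.373), and it was 5.82 without MS1166.1, where the histotype and amplification comparisons become the same (adjusted p = 0.00795, edgeR).

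S100a3 was scarce throughout. Its scaled counts were 91.3 in MS1349.1 and 28.1 in MS1210.1. It was listed at 0 in MS1163.1 and MS1166.1, and the other AC(NST) tumours had 6.44 in MS1155.3, 21.1 in MS1163.2, 2.89 in MS1213.1 and 10.2 in MS1218.2. Both ASQC tumours were thus above all others, the nearest AC(NST) being MS1163.2, but the log2 fold change of 3.14 (standard error 1.19) was not called (adjusted p = 0.496, edgeR). Beside it, 16 hair follicle markers, mostly keratins of the hair shaft and inner root sheath, summed to 6247 in MS1349.1 and 2345 in MS1210.1 and to at most 178 in the AC(NST) tumours. The ASQC with more S100a3 was the one with the higher hair follicle sum. Among the AC(NST) tumours MS1163.2 had the highest value of both, although its hair follicle sum (178) was close to that of MS1218.2 (177). The sarcoma had 12.6 for S100a3 with the lowest hair follicle sum of all (8.37). The part of hair follicle differentiation in the S100a3 values was not tested.

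The calprotectin genes did not keep a fixed ratio to each other. S100a8 had scaled counts of 1975 in MS1349.1 and 2322 in MS1210.1. It had 134 in MS1155.3, 386 in MS1218.2, 317 in MS1163.2, 127 in MS1163.1 and 1264 in MS1213.1, and its lowest value, 48.8, in MS1166.1. Both ASQC tumours were above all others, with MS1213.1 the nearest, and the not/low-amplified tumours held both the highest and the lowest values. For ASQC over AC(NST) the log2 fold change was 2.49 ± 0.89 (SE, edgeR adjusted p = 0.472). That of high- over not/low-amplified tumours was -1.69 ± 1.02 (SE, edgeR adjusted p = 0.345) and turned to 3.17 among the AC(NST) tumours alone, where MS1166.1 is the only not/low-amplified tumour.

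S100a9 had scaled counts of 961 in MS1349.1 and 601 in MS1210.1. Among the AC(NST) tumours it had 7.73 in MS1155.3, 24.1 in MS1218.2, 47.2 in MS1163.2, 4.20 in MS1163.1, 30.8 in MS1213.1 and 65.4 in MS1166.1. The lower ASQC was 9.19-fold above the highest AC(NST), which was MS1166.1. The mean was 781 ± 254 (SD, n = 2) in ASQC and 29.9 ± 23.4 (SD, n = 6) in AC(NST). The log2 fold change was 4.72 ± 0.75 (SE, edgeR adjusted p = 0.0431). The call was kept with MS1163.1 and MS1163.2 summed (0.0491) and lost when any 1 tumour other than MS1166.1 was left out, with adjusted p from 0.0568 to 0.281, and the adjusted p over all alternatives ranged from 3.29e-06 with DESeq2, which called 2.82% of 18358 genes, to 0.501 among parous tumours. By amplification the log2 fold change was -4.57 ± 0.90 (SE, edgeR adjusted p = 0.0510). DESeq2 called it, as did edgeR without the filter (by which 1.25% of 18358 genes were called) and without MS1218.2 (0.0370). So did edgeR without MS1166.1 (0.0246), where the amplification and histotype comparisons become the same. The call was not made with limma (0.0647), nor by edgeR with parity as a covariate (0.225) or the sarcoma included (0.166). Leaving out any other tumour gave edgeR adjusted p from 0.0754 to 0.135. Among the AC(NST) tumours alone the log2 fold change was -1.54, MS1166.1 being the only not/low-amplified tumour there.

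Per kb of exon, S100a8 exceeded S100a9 by 5.05- to 30.8-fold in the high-amplified tumours and by 2.90-fold in MS1210.1 and 1.55-fold in MS1349.1. The ratio was below 1 in MS1166.1 (0.561) and in the sarcoma (0.685). Counts behind the ratio were low in several tumours, S100a9 having 4 reads in MS1163.1 and 6 in MS1155.3. The ranges of high-amplified and not/low-amplified tumours did not overlap, and the difference in ratio was not tested.

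The squamous marker sum was also highest in the ASQC tumours, and the neutrophil sum was so only once Ltf and Cd177 were set aside and Mmp9 was kept. Of the 21 neutrophil markers, 11 passed the filter and 0 were called by amplification or histotype (edgeR). At an unadjusted p-value under 0.05, 3 were higher in ASQC, against 4.38% of all genes. By amplification 1 was higher in each group, against 22.8% of all genes in either direction. In 9 of the 21, both ASQC tumours lay above every AC(NST), against 5.3% of all genes past the filter. The 9 include BC100530, Camp, Retnlg, Stfa2 and Stfa2l1, which did not pass the filter. Retnlg had 11.3 and 11.7 in the ASQC tumours against 11.2 in MS1163.2. The sum of the list, 1385 to 205135 in the epithelial tumours, was made up mostly of Ltf (lactoferrin, up to 204385) and in MS1163.1 of Cd177 (6735), which mammary epithelium can also express. Without these genes, left out after their values were seen, the sum was 528 in MS1213.1, 1408 in MS1218.2, 1448 in MS1349.1, 2470 in MS1210.1 and 152 to 281 in the other epithelial tumours. MS1218.2 thus nearly matched an ASQC in this sum while its S100a8 was 386 and its S100a9 24.1. Of the same list, Ly6g, Mpo and Elane did not exceed 1.46, 3.70 and 3.85 in any tumour, whereas Csf3r had 27.4 to 321 in the epithelial tumours. Cxcr2, the chemokine receptor of mature neutrophils, reached 75.3 and 78.9 in the ASQC tumours against 1.29 to 29.9 in the AC(NST) tumours. More abundant markers of the list did not separate the histotypes. Csf3r had 228 in MS1210.1 and 321 in MS1349.1, with 308 in MS1218.2. Clec4d was highest in MS1218.2 (405), against 90.7 in MS1210.1 and 133 in MS1349.1. The sarcoma had 64.2 for Cxcr2, with 128 for S100a8. Of macrophage markers, 0 of 15 had both ASQC tumours above every AC(NST). The part of neutrophils and of keratinising cells in the S100a8 and S100a9 values was not tested.

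**Figure D3:**
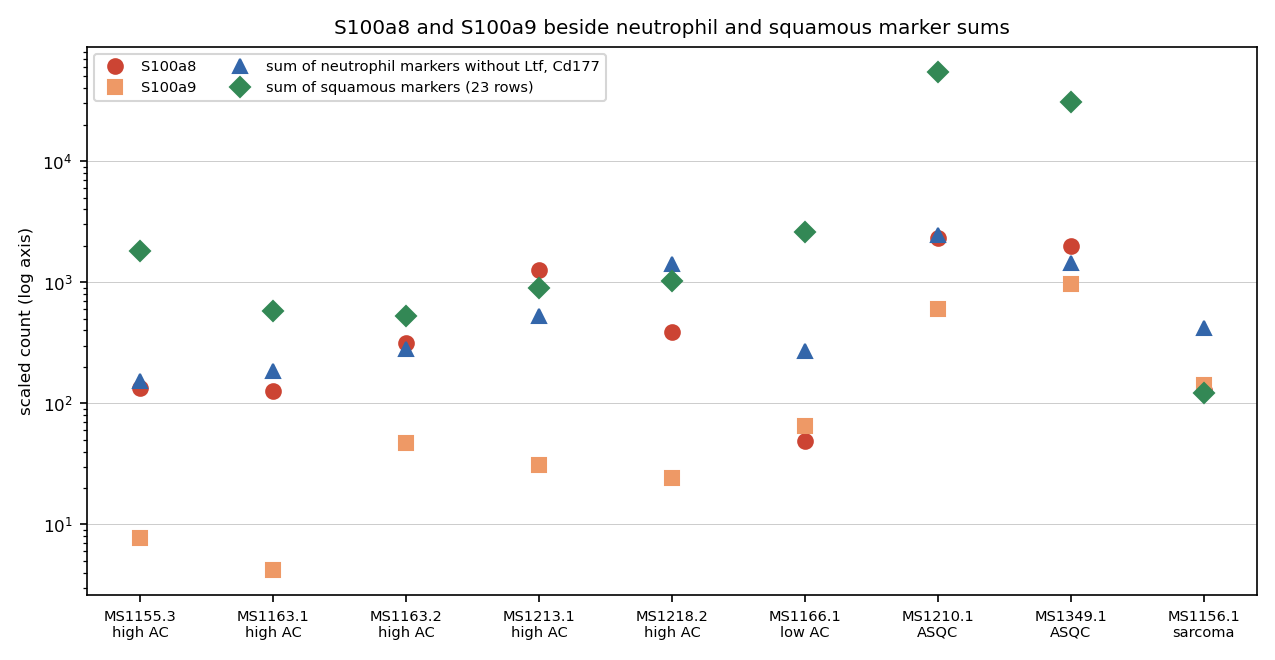
Scaled count (log axis) of S100a8, S100a9, the summed neutrophil markers without Ltf and Cd177, and the summed squamous markers in each tumour, 1 point per tumour. All 4 are high in the ASQC tumours MS1210.1 and MS1349.1, whereas MS1218.2 has a neutrophil sum of 1408 with 24.1 for S100a9, and MS1166.1 has more S100a9 (65.4) than S100a8 (48.8).

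Of the annexin-binding members, S100a10, the partner of annexin A2 at the plasma membrane, had scaled counts of 2267 in MS1166.1, 2967 in MS1349.1 and 4688 in MS1210.1. The high-amplified tumours had 1020.2 in MS1155.3, 1897 in MS1218.2, 1253 in MS1163.2, 952 in MS1163.1 and 691 in MS1213.1. The groups did not overlap, the gap between MS1166.1 and MS1218.2 being 1.20-fold. For high- over not/low-amplified tumours the log2 fold change was -1.50 ± 0.36 (SE, edgeR adjusted p = 0.0752). The adjusted p over the alternatives ranged from 0.00506 to 0.328, and S100a10 was called with DESeq2 (8.67% of 18358 genes) and by edgeR without MS1218.2 (0.0208). Anxa2 itself was highest in MS1210.1 (29626), followed by MS1166.1 (16454) and MS1218.2 (16030), with 4875 to 7657 in the other epithelial tumours, without being called (log2 fold change -1.27 ± 0.55, edgeR adjusted p = 0.203).

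S100a11, which binds annexin A1, had 1389 in MS1166.1, 818 in MS1349.1 and 1259.7 in MS1210.1. The high-amplified tumours had 334 in MS1155.3, 1609 in MS1218.2, 469 in MS1163.2, 648 in MS1163.1 and 669 in MS1213.1. The groups overlapped because of MS1218.2, the highest of all. S100a11 had a log2 fold change of -0.61 ± 0.47 by amplification (SE, edgeR adjusted p = 0.461) and 0.29 ± 0.57 by histotype (SE, edgeR adjusted p = 0.924). Anxa1 had 11251 in MS1349.1, 17651 in MS1166.1 and 69902 in MS1210.1, above the 1949 to 8068 of the high-amplified tumours, with a log2 fold change of -2.84 ± 0.69 that was not called (SE, edgeR adjusted p = 0.0754).

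S100a6, which binds annexins and the ubiquitin ligase adaptor Cacybp, reached the highest scaled count of any member. It had 2178 in MS1166.1, 5722 in MS1349.1 and 14719 in MS1210.1. The high-amplified tumours had 559 in MS1155.3, 6409 in MS1218.2, 753 in MS1163.2, 1167 in MS1163.1 and 1818 in MS1213.1. MS1218.2 lay above the lower ASQC, so that the groups overlapped on both labels. S100a6 had a log2 fold change of 2.25 ± 0.78 by histotype (SE, edgeR adjusted p = 0.454) and -1.80 ± 0.83 by amplification (SE, edgeR adjusted p = 0.235). Without MS1218.2, the tumour with the highest fibroblast and macrophage sums, the latter was -2.80 and was called (edgeR adjusted p = 0.0394, against 0.121 to 0.992 under the other alternatives). The part of stromal cells in the S100a6 values was not tested.

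S100a16 and S100a1 overlapped between the groups on both labels. S100a16 had 2173 in MS1166.1, 1826 in MS1349.1 and 3773 in MS1210.1. In the high-amplified tumours it had 1054 in MS1155.3, 3179.8 in MS1218.2, 826 in MS1163.2, 1816 in MS1163.1 and 991 in MS1213.1. Its ranges overlapped and its log2 fold changes were -0.70 ± 0.47 by amplification (SE, edgeR adjusted p = 0.392) and 0.75 ± 0.52 by histotype (SE, edgeR adjusted p = 0.713). S100a1, the only member with a positive log2 fold change for high- over not/low-amplified tumours, had 971 in MS1166.1, 1068 in MS1349.1 and 1266 in MS1210.1. The high-amplified tumours had 1091 in MS1155.3, 2824 in MS1218.2, 649 in MS1163.2, 1355 in MS1163.1 and 831 in MS1213.1. The not/low-amplified tumours lay wholly inside the range of the high-amplified tumours. The log2 fold change was 0.31 ± 0.45 (SE, edgeR adjusted p = 0.708) and turned to -0.15 without MS1218.2. These tests do not show that the levels of S100a1, S100a11 and S100a16 were equal between groups.

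**Figure D4:**
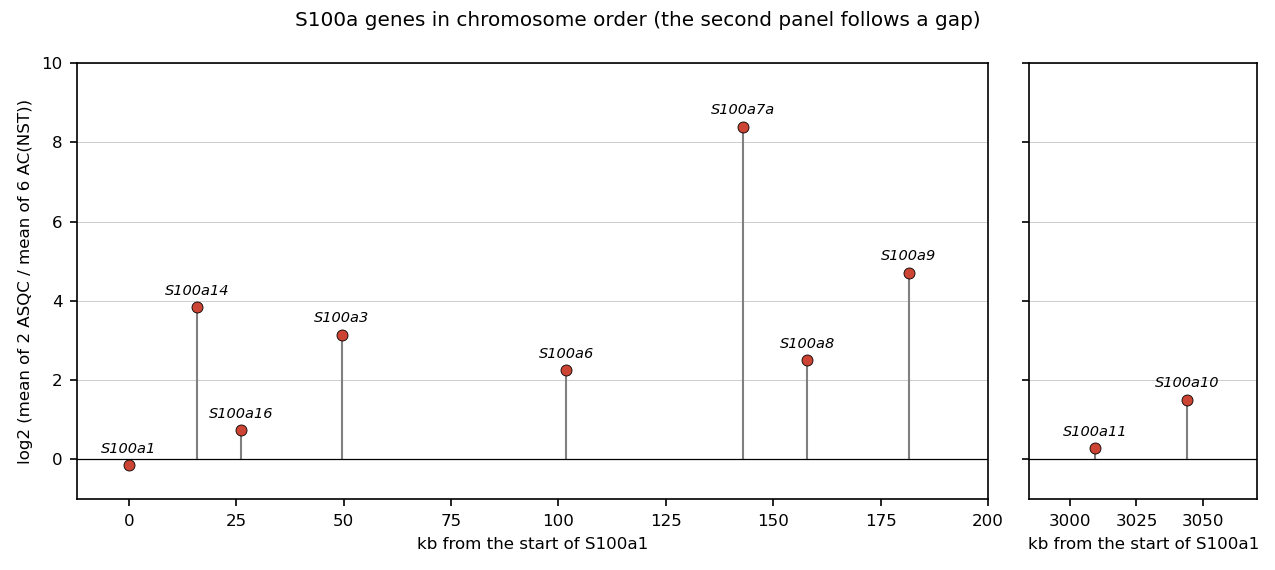
Log2 of the mean scaled count of the 2 ASQC over that of the 6 AC(NST) tumours, for each S100a gene at its distance in kb from the start of S100a1. S100a7a stands highest, and low values (S100a1, S100a16) lie beside a high value (S100a14) in the first panel, S100a11 and S100a10 being in the second panel beyond a gap.

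Order along the chromosome did not sort the members by their contrast. The ratio of the ASQC mean to the AC(NST) mean was 0.907 for S100a1, 14.3 for S100a14 and 1.67 for S100a16, which are neighbours within 26.2 kb. It was 8.82 for S100a3, 4.76 for S100a6, 336 for S100a7a, 5.66 for S100a8 and 26.1 for S100a9. For S100a11 and S100a10, on the other side of the epidermal differentiation complex, it was 1.22 and 2.84.

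By parity (3 virgin against 5 parous tumours), 0 of the 9 members were called by edgeR, as were 0.0% of all genes, and DESeq2 called S100a7a and S100a14, with 2.78% of all genes. An unadjusted p-value under 0.05 was reached by 4 members, S100a14, S100a10, S100a6 and S100a9, each lower in the virgin tumours, as were 8.57% of all genes. With MS1163.1 and MS1163.2 summed, 2 members did so, S100a14 and S100a10, against 1043 of 14023 genes in either direction. All 9 had negative log2 fold changes for virgin over parous tumours, with a median of -1.41 against -0.10 over all genes. The largest was that of S100a14 (-5.09 ± 1.52 SE, edgeR adjusted p = 0.297). Among the high-amplified tumours alone, all AC(NST) and with the same amplification label, the log2 fold change of S100a14 was -0.77 ± 0.74 (SE, edgeR adjusted p = 0.752). In that fit 0 of the 8 members that could be tested had an unadjusted p-value under 0.05, against 857 of all 13472 genes. At so small a share, 0 of 8 does not show that parity made no difference. There S100a8 and S100a9 had positive log2 fold changes, 1.10 (standard error 0.94) and 0.72 (standard error 1.07).

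The sarcoma, which came from the same model but had little epithelial RNA, lay below all 8 epithelial tumours in 3 members and within their range in 7. The 3 were S100a1, with a scaled count of 113 against 649 to 2824, S100a11, with 247 against 334 to 1609, and S100a14, with 5.58 against 18.6 to 6416. S100a6 (1911), S100a10 (1416) and S100a16 (1041) stayed within the epithelial range. S100a9 (141) and S100a7a (92.1) exceeded every AC(NST), S100a8 (128) did not, and S100a3 had 12.6. Its skeletal muscle marker sum was 64313, although S100a1, a muscle gene, was at its lowest there. As there was 1 sarcoma, no test was made.

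For each member tested, the genes with the most similar pattern were found as those with the smallest root mean square difference in log2(scaled count + 1), each gene centred, over the 8 epithelial tumours. The closest match relative to the spread of the member was Axin2, a feedback inhibitor of WNT signalling, for S100a9 (0.45 log2 units). Axin2 had scaled counts of 5250.1 in MS1349.1 and 4341 in MS1210.1 and 43.0 to 328 in the AC(NST) tumours, the highest of which was again MS1166.1. S100a8 had Cxcr2 as its closest gene (0.63 log2 units). S100a6 was followed most closely by Mmp9, a matrix metalloproteinase (0.39 log2 units), and Ecm1 (0.42 log2 units), and S100a14 by Slpi, a secreted protease inhibitor (0.97 log2 units), and Padi1, which citrullinates proteins in epidermis (0.998 log2 units). S100a10 had Nt5c, Hn1 and Prdx1, S100a11 had Ccdc124, Robo1 and Sf3b4, S100a16 had Edf1, Cox8a and Cdkn1a, S100a1 had Aes, Epn1 and Mapk3, and S100a3 had Nkd1, Rnf183 and Gnai1. Among the members themselves, the nearest pair was S100a11 and S100a16 (0.40 log2 units), whereas S100a8 and S100a9 differed by 1.82 log2 units. Points in these measures share tumours and scaling, and 8 tumours leave them as descriptions.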

How the data were processed

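RNA-seq of 9 tumours was used. For every tumour the authors deposited read counts per gene, and for the 8 epithelial tumours also a signal, the same counts divided by DESeq2 size factors. Per the study's methods, reads were aligned to mouse build 38 with STAR, only unique alignments were kept, and HTSeq-count counted them. Libraries were strand-specific, but alignment settings were unstranded, and a strand option for counting is not given in the sources used here, so overlapping genes cannot be separated. The sarcoma was scaled by its median ratio to the geometric means of the 8 tumours.

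Counts were tested with edgeR 4.0.16 (TMM, quasi-likelihood, Benjamini-Hochberg over 14007 genes, filter of 10 counts in 3 tumours, R 4.3.3). Standard errors are the log2 fold change divided by the root of F. Depth was 12501225 to 23912429 reads, and arms of 2 and 3 tumours limit the precision. Alternatives were DESeq2 1.42.0, also on the filtered genes, and edgeR with MS1163.1 and MS1163.2 summed into 1 sample (both added after seeing the data), limma 3.58.1 on log2(scaled count + 1), other factors, no filter, a parity covariate, subsets of tumours, inclusion of the sarcoma, and omission of each tumour in turn. The tests were tested on simulated counts. Exon lengths and positions came from GENCODE M21, which placed 18420 of 18484 genes. Members, marker lists and tests were chosen with earlier results of these data known. Named genes are the 10 members, other S100 genes and partners, up to 4 abundant or defining markers per list, and the 3 genes nearest to each member; others were named after their values were seen.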

Additional observations from a re-analysis of the deposited data

Results flagged for a closer look

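In the 5 high-amplified tumours, 4 of the 10 members had a single tumour that passed Dixon's 95% limit. The measure is its gap to the nearest other tumour, divided by the range of the group. For normally distributed values about 1 of 20 groups passes by chance. Scaled counts need not be so distributed. The share of all genes passing was not computed, so that the count of 4 has no background beside it. S100a6 was 6409 in MS1218.2, against 559 to 1818 in the others. S100a11 was 1609 in the same tumour, against 334 to 669 in the others. MS1218.2 also had the highest fibroblast (520063) and macrophage (95937) marker sums of the epithelial tumours. S100a8 was 1264 in MS1213.1, against 127 to 386 in the others, and S100a7a was 10.3 in MS1155.3, against 1.85 to 4.20. For S100a7a these were only 8 reads against 2 to 4. MS1155.3 had the highest squamous marker sum of the high-amplified tumours (1823). The part of these marker genes in the single high values was not tested.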

How the results depend on the processing

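Of the members' log2 fold changes by amplification and histotype under the alternatives, 258 kept their direction and side of the threshold, 10 passed a threshold that they had missed, 13 no longer passed one and 6 changed sign. A missing p-value was counted here as not passing. By amplification, 1 member was called by edgeR; 4 were called with DESeq2, 3 with DESeq2 on the filtered genes, 3 without the filter, 0 with parity as a covariate, 0 among AC(NST) tumours (1 of them not/low-amplified), 0 with the sarcoma included, and 0 to 4 with each tumour left out (0 without MS1210.1, 2 without MS1166.1, 4 without MS1218.2). Over all genes the 129 calls became 1591, 1489, 229, 0, 40 and 3 under the first 6 of these, and 1 to 1255 with each tumour left out (1 without MS1210.1, 1255 without MS1218.2). By histotype, 1 member was called; 2 with DESeq2, 2 without the filter, 0 with limma, 0 among parous tumours, and 0 to 2 with each tumour left out (2 without MS1166.1, otherwise 0). The 33 calls over all genes became 518 with DESeq2, 373 with DESeq2 on the filtered genes, 171 without the filter, 14 with limma, 1 among parous tumours, and 4 to 84 with each tumour left out (4 without MS1349.1, 84 without MS1166.1). With MS1163.1 and MS1163.2 summed into 1 sample, 1 member was called by amplification, 1 by histotype and 0 by parity, and of all genes 31, 18 and 0. DESeq2 gave no histotype p-value for S100a8 and S100a14. By parity, edgeR called 0 members and DESeq2 called 2, or 1 on the filtered genes. Over all genes it called 0 (1984 at an unadjusted p under 0.05), DESeq2 called 511 or 502, and 0 to 147 were called with each tumour left out (147 without MS1155.3). Signs changed for S100a8 by amplification among AC(NST) tumours (3.17), S100a1 by amplification without MS1218.2 (-0.15, range -0.15 to 0.49), S100a11 by histotype among parous tumours (-0.11) and without MS1210.1 (-0.11, range -0.11 to 0.58), and S100a1 by histotype with limma (0.030) and without MS1218.2 (0.26, range -0.31 to 0.26). Fewer tumours enter when one is left out or a subset is used; for the other settings the cause was not tested. With 2 to 5 tumours per group, a gene near 0 reads in several tumours, such as S100a3 or S100a7a, could be compared only coarsely. No paired analysis was possible because the labels give the tumours no shared replicate numbers. The 3 members below all epithelial tumours in the sarcoma were 3 also with size factors over all 9 tumours.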

Other observations

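Other S100 genes listed for these tumours were S100a13, S100a4, S100b and S100g. S100b, a glial and melanocytic S100 gene on chromosome 10, was higher in the high-amplified tumours, whereas 8 of the 9 S100a members tested had negative log2 fold changes. The scaled count of S100b was 142 in MS1155.3, 1095 in MS1218.2, 209 in MS1163.2, 372 in MS1163.1 and 114 in MS1213.1. Those not/low-amplified had 3.57 in MS1166.1, 4.38 in MS1349.1 and 14.8 in MS1210.1, and the sarcoma had 3903. The log2 fold change of high- over not/low-amplified tumours was 5.63 ± 1.05 (SE, edgeR adjusted p = 0.0433), in a comparison that called 0.921% of all genes. All 5 high-amplified tumours lay above every not/low-amplified tumour and below the sarcoma. S100a13, which lies between S100a1 and S100a14, had 173 to 652 in the high-amplified and 320.0 to 491 in the not/low-amplified tumours, without being called (log2 fold change -0.42 ± 0.47, edgeR adjusted p = 0.617). S100a4, a gene of fibroblasts, had at most 25.0 in the epithelial tumours and 41.9 in the sarcoma, and 51.7% of its exon bases overlap another annotated gene, whose part in these low values was not tested. S100g, a calbindin of the intestine, had 61.9 in MS1210.1 and at most 6.58 elsewhere.

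Of 19 genes for binding partners of S100 proteins, 17 were tested and 0 were called by amplification, histotype or parity (edgeR). By amplification 4 reached an unadjusted p-value under 0.05, each lower in the high-amplified tumours, against 22.8% of all genes in either direction. Besides Anxa1 and Anxa2 these were Alcam, with 10991 in MS1166.1 and 203 to 2312 in the other epithelial tumours, and Sugt1, with 823 to 1580 in the not/low-amplified and 526 to 690 in the high-amplified tumours. The calprotectin receptor Ager did not exceed 34.8 in any epithelial tumour, while Tlr4 had 937 to 2244. Ryr1, the muscle calcium channel bound by S100a1, had 6435 in the sarcoma and 715 in MS1163.2, which were also the tumours with the highest skeletal muscle sums, and at most 59.5 elsewhere.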
